A study of Mus musculus with 54 samples.

Results

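Ikzf3, which encodes Aiolos, and Bcl11a are genes for zinc finger transcription factors of the lymphoid lineage. All regions and peaks that the authors' annotation names for either gene were collected from the deposited tables, together with the chromatin contacts anchored on their accessible regions in a progenitor B cell line. They are 2 of 1788 genes named in the accessibility table. That table holds 12 regions for Bcl11a and 4 for Ikzf3 among 4983, where the median gene has 2, and the histone tables hold 6 and 1 among 3764. The tables of Ebf1-bound regions hold 1172 regions and name none for either gene.

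Aiolos belongs to the Ikaros family, whose members bind DNA as dimers through zinc fingers and can recruit the NuRD chromatin remodelling complex, and it is known for restraining pre-B cell proliferation and for its part in light chain gene recombination. Bcl11a is needed for early B lymphopoiesis and is also known as a repressor of fetal globin genes in erythroid cells. Ebf1 and E2A, the product of Tcf3, are factors needed at the entry to the B lineage.

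The fetal liver progenitors came from C57BL6/J mouse fetuses that were wild type (Wt), deficient in Ebf1 (Ebf1-KO) or deficient in E2A (E2A-KO), and they were expanded on OP9 stromal cells with KIT ligand, FLT3 ligand and IL-7. Fetal age was not given in the sources used here. Accessibility (ATAC-seq) was set between E2A-KO and Wt, with 3 labelled samples each. The Wt column is headed as a pool of 6 libraries. H3K4me3, H3K27me3, H3K4me2, RNA polymerase II (PolII), BRG1 and EP300 ChIP-seq and H3K27ac CUT&RUN were set between Wt and Ebf1-KO, with 2 labelled samples per genotype for H3K4me3 and H3K27me3 and 1 for the others. A further ATAC-seq set used Ebf1-KO cells carrying the pMiG-Ebf1ER vector at 0, 6, 24 and 72 h of 4OHT (4-hydroxytamoxifen), with 2 samples per time. In that set the time 0 cells also carry the vector. Binding of Fli1 and Ikzf1 was taken from Wt cells. Contacts (H3K4me3 PLAC-seq), Ebf1 binding and a separate set of accessible regions came from 230-238, a single Abelson virus-transformed progenitor line.

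Each genotype or time is 1 column of a region table, either a pool or a single library, so no difference below has a replicate test. Library totals ran from 24557525 to 196071042 tags. Values are tags per 10000000 of the library, not divided by region length, and their 95% intervals are exact Poisson intervals from the recovered tags that cover counting error only. Folds carry exact conditional intervals of the same kind. Log2 ratios are those of value plus 1, and "at least 2-fold" means a log2 ratio of at least 1 in size. The tables are limited to the surroundings of genes chosen by the study for their enrichment in Wt cells, and fewer cells of a type and less signal per cell cannot be told apart in these bulk samples. Of the markers listed for other cells, T cells and natural killer cells had 1 of 8 genes in the accessibility table each, myeloid cells 3 of 8, erythroid cells 0 of 8 and OP9 stroma 0 of 6. All 8 B progenitor markers were present, with a summed accessibility of 225 in E2A-KO and 812 in Wt. The summed values in the same order were 14.7 and 21.7 for the T cell marker (Cd5), 65.2 and 127 for the natural killer marker, and 140 and 211 for the myeloid markers. A single gene does not stand for a cell type. In the histone tables the B progenitor markers, in Wt and Ebf1-KO, summed to 990 and 429 tags of H3K4me3, 23.2 and 98.5 of H3K27me3, 868 and 430 of H3K4me2, 918 and 285 of H3K27ac and 869 and 220 of PolII. These sums thus had the same directions as the Ikzf3 promoter. For H3K27me3 the sum does not describe most of the markers. With each gene given by its strongest region, 2 of 8 were at least 2-fold lower in Wt, against 22.4% of all genes. Their median log2 ratio of Wt over Ebf1-KO was -0.11, against -0.02 for all genes. In Wt and Ebf1-KO the natural killer marker had 248 and 470 tags of H3K4me3, but 33.8 and 34.4 of H3K27ac and 41.0 and 38.0 of PolII. The T cell marker had 11.7 and 5.41 of H3K4me3, 19.75 and 5.55 of H3K27ac and 22.2 and 3.42 of PolII. The myeloid markers (2 of 8 measured) had 203 and 260 of H3K4me3, 50.1 and 41.1 of H3K27ac and 32.0 and 39.3 of PolII. The part of cell composition in the results below was not tested.

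The promoter of Bcl11a is shown because it is 1 of the start sites at which the marks described below were measured, and because it holds 1 copy of the core that Ikaros family proteins bind. The 250 bases before the RefSeq start (GRCm38.p6, chr11:24080445-24080694, plus strand) read as follows, with that core, TGGGAA, in capitals at positions -161 to -156 from the start.
Bcl11a promoter: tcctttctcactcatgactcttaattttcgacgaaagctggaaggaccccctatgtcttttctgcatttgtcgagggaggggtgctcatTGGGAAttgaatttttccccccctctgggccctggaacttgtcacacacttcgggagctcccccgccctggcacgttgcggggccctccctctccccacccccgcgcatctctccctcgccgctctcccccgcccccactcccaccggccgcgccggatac
TGGGAA occurs on either strand in 21.6% of 32851 mouse promoters cut to the same length. The other cores searched on both strands, none of which contains another, had no match in this window: CCCNNGGG for Ebf1 (11.8% of promoters), CAGCTG and CAGGTG for E proteins (13.0% and 17.2%) and AGGAAGT for Ets factors such as Fli1 (7.69%). The stretch is 62% G and C, above 76.7% of the promoters, and holds 16 CG pairs where the median promoter holds 6. The RefSeq table matched 1 of the 2 genes.

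In Ebf1-KO progenitors the Ikzf3 promoter had much lower active marks than in Wt and carried H3K27me3, the mark laid down by the Polycomb complex. This region (mm10, chr11:98545633-98546367) was annotated as the promoter of NM_011771 and was open in both Wt and Ebf1-KO by the authors' classes. H3K4me3, the mark of active or poised promoters, stood at 84.3 tags in Wt (77.9 to 91.1) and at 7.45 in Ebf1-KO (6.29 to 8.76), 11.3-fold lower without Ebf1 (9.45 to 13.6). H3K27me3 went the other way, from 1.22 tags in Wt (0.542 to 2.35) to 45.2 in Ebf1-KO (40.6 to 50.2). That difference of 37.1-fold (19.0 to 84.2) gave the 7th lowest log2 ratio of Wt over Ebf1-KO among 3764 regions (-4.38). The Ebf1-KO value lay above 99.2% of all regions, whose median was 0.71 tags.

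The marks of active regulatory DNA and PolII were also lower at the Ikzf3 promoter in Ebf1-KO. PolII had 35.1 tags in Wt (28.2 to 43.2) and no tag in Ebf1-KO. With that count of 0 set to a floor of 3 recovered tags, PolII was 34.2-fold higher in Wt. The exact conditional interval puts the lower limit at 27.3-fold, and its log2 ratio was the 5th highest of 3764. H3K27ac, found at active promoters and enhancers, was 7.70-fold higher in Wt (3.00 to 25.2). H3K4me2 differed least, with 42.3 tags in Wt and 16.8 in Ebf1-KO, 2.52-fold (1.90 to 3.37). A promoter with all 4 of these marks at least 2-fold higher in Wt and H3K27me3 at least 2-fold higher in Ebf1-KO was found 23 times among 582 promoter regions (3.95%). Over all regions the same combination occurred at 209 of 3764 (5.55%). Of those 23 promoters, Ikzf3 had the lowest H3K27me3 ratio, followed by Gm266 (-4.26) and Pax5 (-3.97).

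The Bcl11a promoter cluster had a different profile, in which H3K4me3 was as high in Ebf1-KO as in Wt or higher, and both H3K4me2 and H3K27me3 were higher there. At 1 of its promoter regions (chr11:24077422-24078132, NM_001159289) H3K4me3 was 76.3 tags in Wt and 88.5 in Ebf1-KO, 1.16-fold lower in Wt (1.06 to 1.28). H3K4me2 there was 13.4 tags in Wt and 53.7 in Ebf1-KO, 4.02-fold lower in Wt (2.98 to 5.50), the 37th lowest ratio of 3764. H3K27me3 was 0.29 tags in Wt and 5.05 in Ebf1-KO, a 17.6-fold difference with a wide interval (4.56 to 151) because the Wt value rests on few tags. H3K27ac was 9.98 and 12.0 tags and PolII 8.97 and 7.52 tags in Wt and Ebf1-KO, and both ratios had intervals that included 1 (0.692 to 2.13 and 0.635 to 2.24). The PolII log2 ratio of 0.23 turned to -0.43 with TMM and to -0.45 relative to the median, so it has no stable direction. Per kilobase of region, the H3K4me3 level of this promoter was 107 in Wt and 125 in Ebf1-KO, whereas the Ikzf3 promoter had 115 and 10.1.

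The other 3 regions within a few kilobases of the Bcl11a start sites shared these directions for H3K4me3, H3K4me2 and H3K27me3. H3K4me2 was 2.89-fold lower in Wt at chr11:24076020-24076613 (2.25 to 3.74), 2.66-fold lower at the promoter region chr11:24080541-24080790 of NM_001159290 (1.80 to 4.02) and 3.42-fold lower in intron 1 at chr11:24080830-24081647 (2.65 to 4.45). H3K4me3 was lower in Wt at each of them by 1.54-fold to 1.68-fold. H3K27me3 was 4.98 to 5.31 tags in Ebf1-KO at the first 2 and 3.82 at the intron region, against 0.14 to 0.43 in Wt. PolII was 2.53-fold lower in Wt at the NM_001159290 promoter (1.15 to 6.14) and 1.67-fold higher at the most upstream region (1.08 to 2.60), where the log2 ratio relative to the median of all regions was only 0.02. The 4 regions lie within 6 kb, so broad marks across them are not independent measurements. H3K4me2 and H3K27me3 were both at least 2-fold higher in Ebf1-KO at 43 of 3764 regions (1.14%), under 39 gene names. Bcl11a held 4 of these, more than the 2 of E030030I06Rik, the next name.

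The 2 distal Bcl11a regions, annotated as intergenic, had higher H3K4me3 and H3K27ac in Wt than in Ebf1-KO, and differed from each other in H3K4me2 and PolII. The region chr11:24251541-24251853, 171002 bases from the annotated start and open in Wt only, had 5.22 tags of H3K4me3 in Wt and 0.41 in Ebf1-KO, 12.8-fold (5.91 to 31.6). H3K4me2 there was 6.37-fold higher in Wt (2.85 to 16.8), H3K27ac 5.75-fold higher (2.06 to 20.8) and PolII 2.61-fold higher (1.01 to 7.50). H3K27me3 stayed below 1 tag in both genotypes. At the other, chr11:24178853-24179496, H3K27ac was 13.4 tags in Wt and 4.81 in Ebf1-KO, 2.79-fold (1.43 to 5.78), whereas PolII was 1.95 and 8.89 tags, 4.56-fold lower in Wt (1.72 to 15.2). H3K4me2 at that region was 7.53 and 5.04 tags, with an interval of the fold that included 1 (0.832 to 2.74). Relative to the median of all regions, which was shifted for H3K27ac, its H3K27ac log2 ratio was 0.62, so that the 2-fold call was lost, as it was with TMM, while chr11:24251541-24251853 stood at 1.29. H3K4me3 was far lower at both distal regions than in the promoter cluster.

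**Figure D1:**
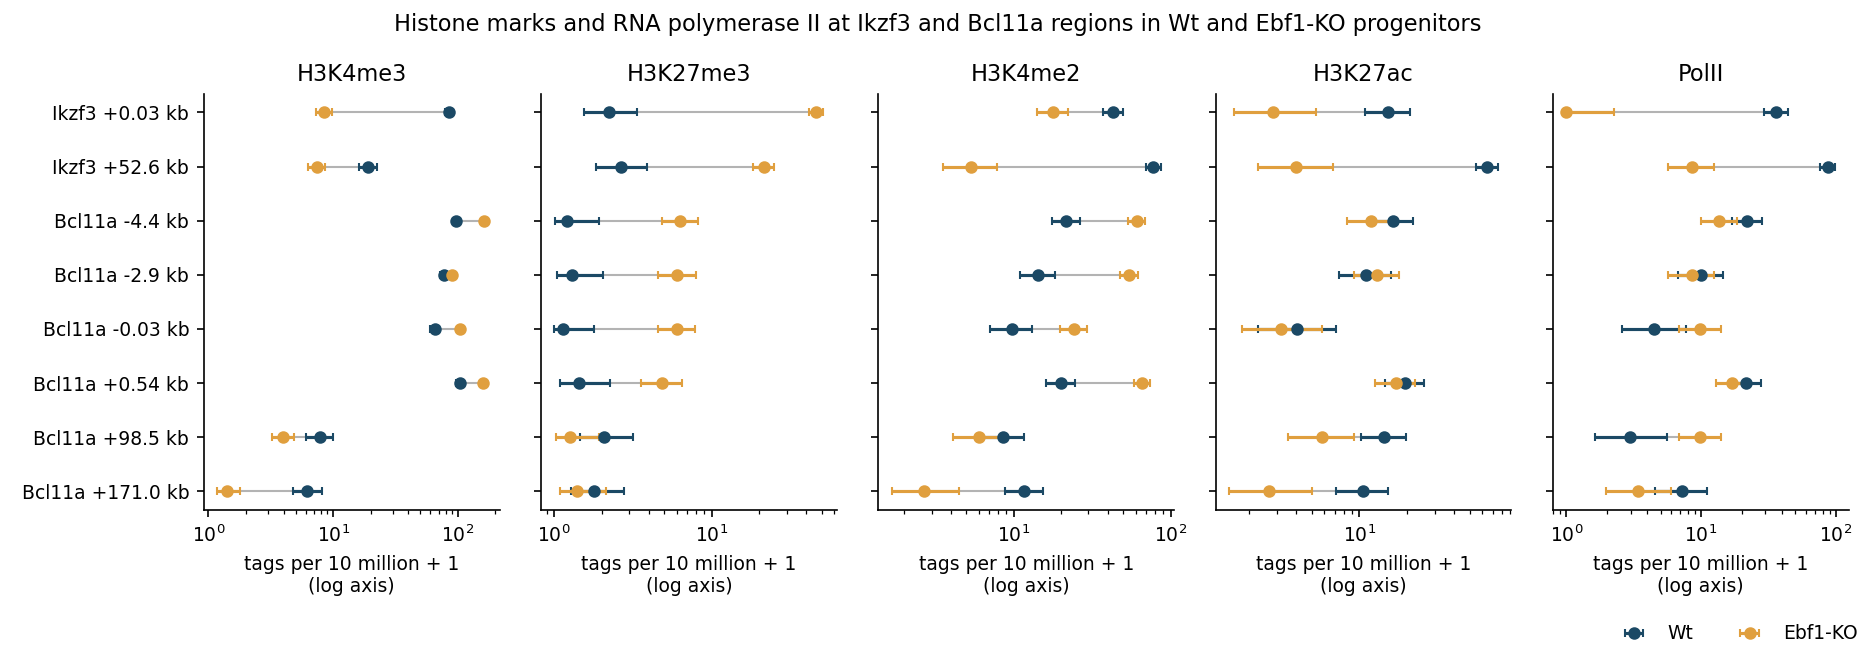
Tags per 10000000 plus 1 (log axis) of 5 marks at the Ikzf3 promoter, the accessible region in Ikzf3 intron 3 and the 6 Bcl11a regions, labelled by distance from the RefSeq start in kilobases, in Wt and Ebf1-KO, with 95% Poisson intervals. At both Ikzf3 regions every mark differs at least 2-fold. The smallest differences there are in H3K4me2 at the promoter (2.52-fold) and H3K4me3 in intron 3 (2.82-fold). At the Bcl11a promoter cluster H3K4me2 and H3K27me3 are higher in Ebf1-KO.

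Read against all regions, the members' counts were as follows. H3K4me3 was at least 2-fold higher in Wt at 2 of the 7 regions, 1 of each gene, where 25.3% of all regions were. It was at least 2-fold lower at none, against 15.5% of all regions. H3K27me3 was at least 2-fold lower in Wt at 5 of 7, namely 4 of Bcl11a and that of Ikzf3, against 16.6% of all regions. H3K4me2 was at least 2-fold lower in Wt at 4 of 7, all of Bcl11a, against 7.44%, and at least 2-fold higher at 2 of 7, 1 of each gene, against 30.5%. H3K27ac was at least 2-fold higher in Wt at 3 of 7, against 37.3%, a share near the background. PolII was at least 2-fold higher in Wt at 2 of 7, against 40.0%, and at least 2-fold lower at 2 of 7, both of Bcl11a, against 7.04%. Counts this small describe these regions and were not tested.

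Some comparisons were shifted as a whole. The median log2 ratio over all 3764 regions was -0.03 for H3K4me3, 0.04 for H3K27me3, 0.20 for H3K4me2, 0.69 for H3K27ac and 0.68 for PolII. With TMM scaling, which sets the bulk of regions level, the split of regions higher against lower in Wt moved from 1404 against 43 to 740 against 311 for H3K27ac and from 1505 against 265 to 959 against 691 for PolII. For H3K4me2 it moved from 1149 against 280 to 1014 against 473 when the median was subtracted. Relative to these medians the Ikzf3 promoter remained higher in Wt for all 3, by 1.09 for H3K4me2, 1.73 for H3K27ac and 4.49 for PolII on the log2 scale, of which the last depends on the pseudocount because the Ebf1-KO value is 0.

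**Figure D2:**
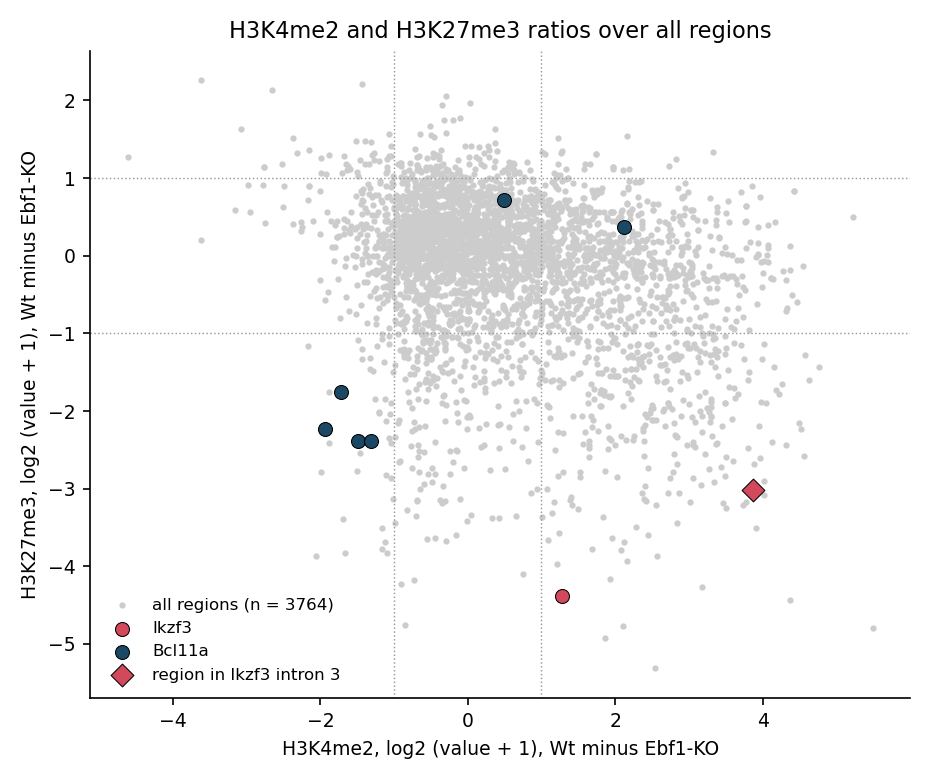
Log2 ratio of Wt over Ebf1-KO for H3K4me2 (horizontal axis) and H3K27me3 (vertical axis) over all 3764 regions, with dotted lines at 2-fold. The 4 regions of the Bcl11a promoter cluster sit at the lower left, where 43 regions lie, and the Ikzf3 promoter and its intron 3 region sit at the lower right.

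A second region of the Ikzf3 gene came to light through its contacts and lies outside the choice by gene name, so it was chosen after its values were seen. It spans chr11:98492905-98493888 within intron 3 of Ikzf3, 52.6 kb from its start, but the authors' annotation by nearest start site names it for Grb7, 46562 bases away. It was bound by Ebf1 and Pax5 in the Abelson line and open in Wt but not in Ebf1-KO by the deposited classes. BRG1, the ATPase of a SWI/SNF remodelling complex, had 54.3 tags there in Wt (48.2 to 61.0), the highest Wt value of the 1172 Ebf1-bound regions, whose median was 16.1. In Ebf1-KO BRG1 had 2.73 tags (1.45 to 4.66), 19.9-fold lower (11.5 to 37.9). The region spans 984 bases, and values were not divided by length. BRG1 was at least 2-fold higher in Wt at 32.4% of the Ebf1-bound regions, which include those open in both genotypes. Among them this region had the 14th highest ratio.

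EP300, a histone acetyltransferase of active enhancers, gave a similar picture at the intron 3 region. It had 90.5 tags in Wt (81.6 to 100.2) and 4.39 in Ebf1-KO (2.92 to 6.34), 20.6-fold lower (14.0 to 31.5) and the 20th highest ratio. EP300 was at least 2-fold higher in Wt at 36.9% of the Ebf1-bound regions, again with those open in both genotypes included. The antibody field of the Wt EP300 sample names PolII with a question mark, so that the target of this library is uncertain. The all-region median was 0.29 for BRG1 and 0.56 for EP300, and TMM moved the split of higher against lower from 380 against 117 to 318 against 188 and from 433 against 129 to 311 against 254. Relative to the median, EP300 was still 3.53 higher on the log2 scale.

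The marks at the intron 3 region differed in the same directions as at the Ikzf3 promoter. H3K27ac was 63.7 tags in Wt and 2.96 in Ebf1-KO, 21.5-fold (10.7 to 50.7) and the 14th highest ratio of 3764. H3K4me2 was 76.5 and 4.32 tags, 17.7-fold (11.0 to 30.3), and PolII was 85.8 and 7.52 tags, 11.4-fold (7.35 to 18.6). H3K4me3 was 18.0 and 6.38 tags, 2.82-fold (2.20 to 3.63). H3K27me3 was 1.65 tags in Wt and 20.4 in Ebf1-KO, 12.4-fold lower in Wt (6.81 to 24.9), the 73rd lowest of 3764. Compared with the promoter, this region had more H3K4me2, H3K27ac and PolII in Wt and less H3K4me3.

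Ebf1ER with 4OHT was not followed by detectable opening of the intron 3 region within 72 h. It had 1.69 tags at 0 h (0.730 to 3.33), 4.03 at 6 h (2.21 to 6.77), 1.37 at 24 h (0.443 to 3.19) and 1.44 at 72 h (0.468 to 3.36), from 8, 14, 5 and 5 recovered tags. The 6 h value was 2.38-fold that at 0 h with an interval that included 1 (0.934 to 6.56), and the 72 h value was 1.17-fold lower (0.339 to 4.56). Values below 1 in the latter interval stand for a rise. The all-region medians were 9.09, 12.4, 15.2 and 16.4 tags in order of time, and at 72 h 1.11% of regions lay below the intron 3 region. At 72 h 18.2% of the 1172 regions were at least 2-fold higher than at 0 h, 213 higher against 7 lower, or 80 against 32 with TMM. The 6, 24 and 72 h comparisons share the 0 h column.

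**Figure D3:**
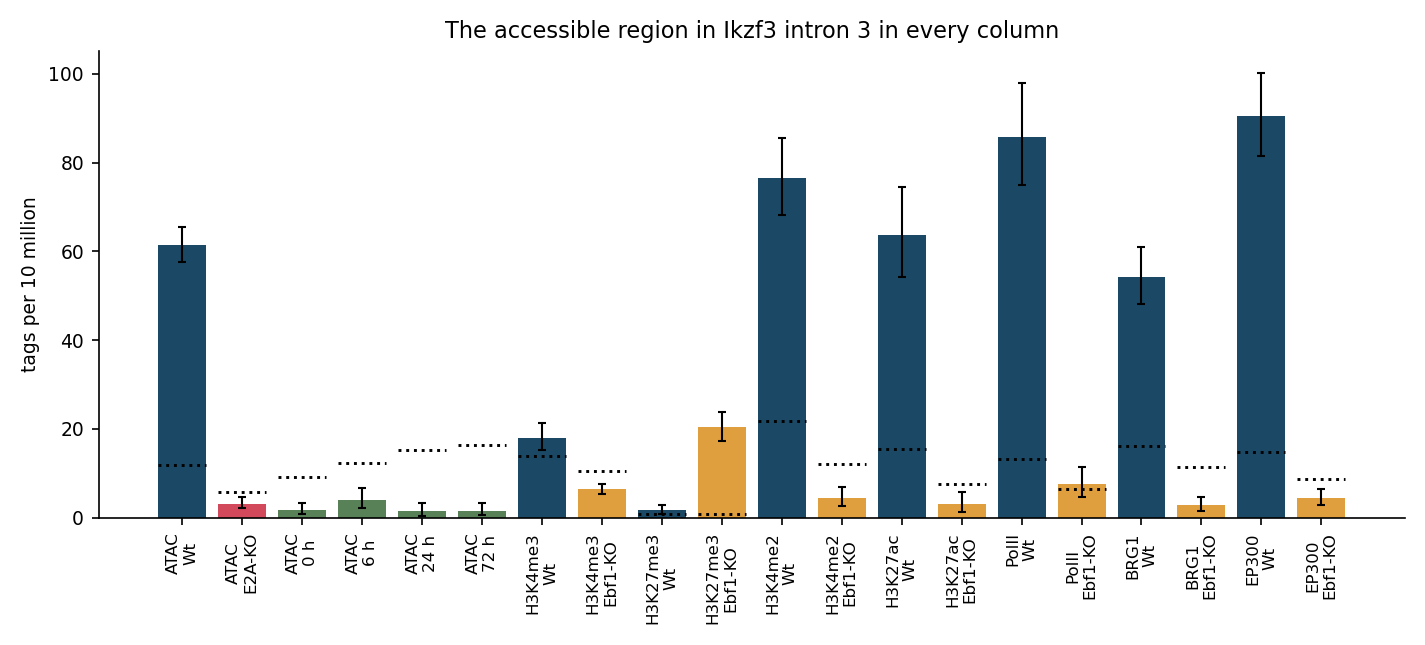
Tags per 10000000 in the Ikzf3 intron 3 region in every column used, with 95% Poisson intervals and, as dotted lines, the median of all regions of the same column. Wt values of ATAC, H3K4me2, H3K27ac, PolII, BRG1 and EP300 lie between 54.3 and 90.5 tags, and the 4 columns of Ebf1-KO cells with Ebf1ER (0 to 72 h) lie between 1.37 and 4.03.

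Loss of E2A was accompanied by lower accessibility at Ikzf3, while 1 Bcl11a promoter region was at least as accessible as in Wt. The intron 3 region had 61.4 ATAC tags in Wt (57.6 to 65.5) and 3.15 in E2A-KO (2.07 to 4.58), 19.5-fold lower (13.3 to 29.8). This was the 16th lowest ratio of 4983, or -3.15 relative to the all-region median of -0.76. The Ikzf3 promoter had 18.5 tags in Wt (16.4 to 20.7) and 7.81 in E2A-KO (6.05 to 9.92), 2.36-fold lower (1.81 to 3.13) and -0.38 relative to that median. The weaker Ikzf3 region in intron 1 at chr11:98542610-98542895 had 4.62 tags in Wt and 0.93 in E2A-KO, 4.95-fold lower (2.38 to 11.9). The 2 remaining Ikzf3 regions had the same direction, with 3.71 tags in Wt and 1.52 in E2A-KO at the promoter region chr11:98546624-98546846, 2.45-fold lower (1.32 to 4.87), and 1.82 and 0.35 tags in intron 1. The fold was far larger within intron 3 than at the promoter. The intervals of those folds do not overlap, but they cover counting error only, and a difference between the folds was not tested.

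At Bcl11a the order was reversed between neighbouring regions. The NM_001159289 promoter had 38.9 tags in Wt (35.8 to 42.1) and 46.2 in E2A-KO (41.7 to 50.9), 1.19-fold higher in E2A-KO (1.04 to 1.35). Upstream of it, chr11:24076020-24076613 had 40.6 tags in Wt (37.5 to 43.9) and 19.1 in E2A-KO (16.3 to 22.3), 2.12-fold lower (1.78 to 2.54). In intron 1, chr11:24080830-24081647 was 1.86-fold lower in E2A-KO (1.58 to 2.21). The 3 strong regions of the cluster thus had nearly equal accessibility in Wt, and as deposited only the middle 1 was higher in E2A-KO. With TMM the intron 1 region stood at 0.01, level between the genotypes.

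The remaining Bcl11a regions ranged from a log2 ratio of 0.45 in intron 1 (chr11:24079147-24079341, 3.84 tags in Wt and 5.60 in E2A-KO) to -1.46 at the distal region chr11:24251541-24251853. Of the other promoter regions, chr11:24077177-24077375 had 4.75 tags in Wt and 6.18 in E2A-KO (1.30-fold higher, 0.896 to 1.88), and chr11:24080541-24080790 had 7.15 and 5.36 tags (1.33-fold lower, 0.937 to 1.92). Both intervals included 1, the second turned to 0.42 on the log2 scale with TMM, and the log2 ratios of the promoter regions between them were 0.14 and -0.41. The distal region had 7.87 tags in Wt (6.53 to 9.40) and 2.22 in E2A-KO (1.33 to 3.46), 3.55-fold lower (2.18 to 6.10). Accessibility was at least 2-fold lower in E2A-KO at 3 of 12 Bcl11a regions and 3 of 4 Ikzf3 regions, where 37.9% of all regions were. It was at least 2-fold higher at none, against 0.983% of all regions. The median of these 16 regions was -0.83, close to the median of all regions. TMM moved the split of all regions from 49 higher against 1889 lower to 294 against 750. It left none of the 16 at least 2-fold lower, placed the NM_001159289 promoter at 1.12 (higher in E2A-KO) and the Ikzf3 promoter at -0.31, and left the intron 3 region at -3.11. The direction at the NM_001159289 promoter therefore held under both scalings, and its size depends on the scaling.

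**Figure D4:**
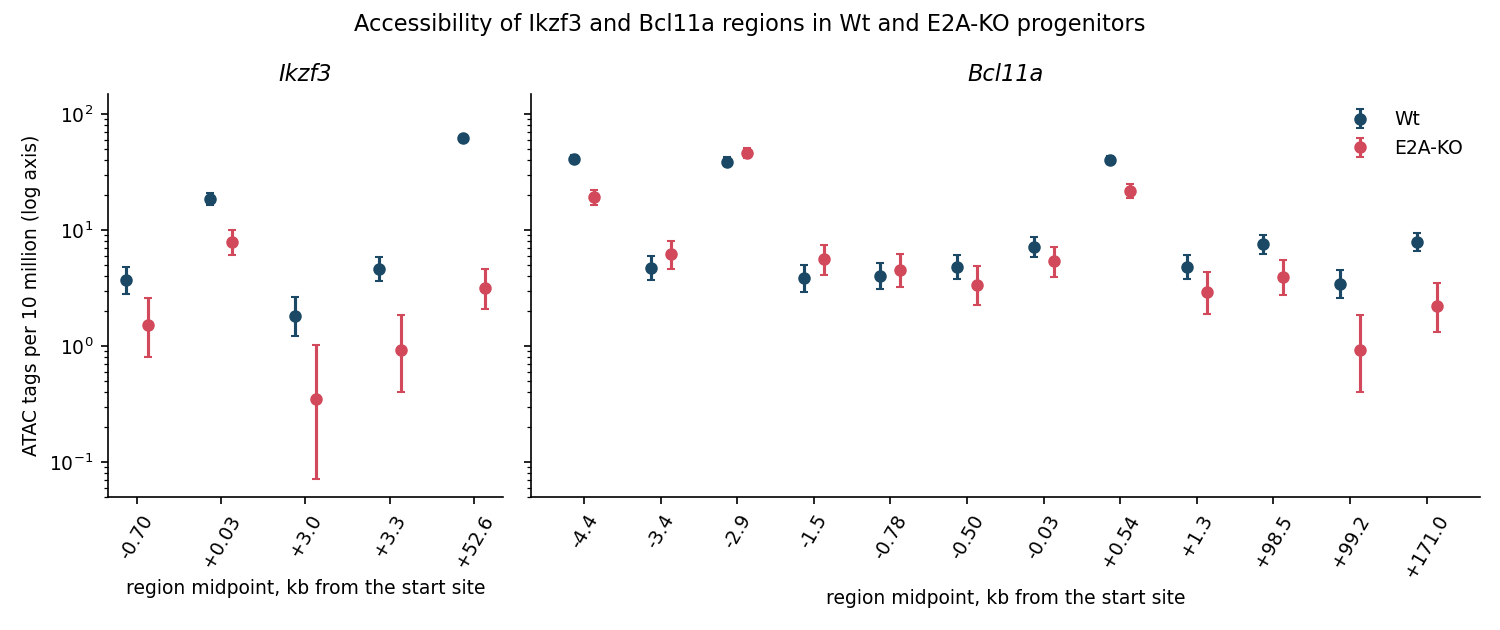
ATAC tags per 10000000 (log axis) at each Ikzf3 region, with the intron 3 region at +52.6 kb, and at each of the 12 Bcl11a regions, in Wt and E2A-KO with 95% Poisson intervals, by distance of the region's midpoint from the RefSeq start. The gap is widest at +52.6 kb in Ikzf3, 61.4 against 3.15 tags, and the order is reversed at the Bcl11a promoter at -2.9 kb.

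By nearest start site, many peaks of the Ets factor Fli1 and of Ikzf1, the founding member of the Ikaros family, in Wt progenitors were named for Bcl11a. Scores are the authors' own for each peak and rank peaks only within a list. Bcl11a was named for 13 of 27261 Fli1 peaks, and 31 genes had more. All 13 were annotated as intergenic, at up to 179239 bases from the annotated start, and none lay within the gene. The scores of these peaks ran from 8.10 to 35.3 with a median of 19.1, against 16.7 for all Fli1 peaks. All 13 overlapped accessible regions of the Abelson line, as did 75.1% of all Fli1 peaks. Bcl11a was named for 6 of 5741 Ikzf1 peaks, and 8 genes had more. All 6 lay on accessible regions, as did 86.7% of all Ikzf1 peaks. The strongest, with a score of 15.3, lay in intron 1 at chr11:24081553-24081737 and exceeded 97.4% of Ikzf1 peaks. The other 5 were annotated as intergenic and overlapped Fli1 peaks. Among them was a pair in the distal region chr11:24251541-24251853, with scores of 14.8 for Fli1 and 5.88 for Ikzf1.

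For Ikzf3 the annotation names 1 Fli1 peak and no Ikzf1 peak, but peaks of both factors lie in the intron 3 region under the name of Grb7. Fli1 had a score of 45.3 there (chr11:98493091-98493443), above 96.1% of Fli1 peaks. Ikzf1 had a score of 11.4 (chr11:98493127-98493311), above 90.8% of Ikzf1 peaks. The Fli1 peak named for Ikzf3, at chr11:98515559-98515911 in the same intron, had a score of 42.9 and did not overlap an accessible region of the Abelson line. A further Fli1 peak, with a score of 20.5, lay in intron 6 at chr11:98484506-98484858 on an accessible region of that line. Assigning peaks by nearest start site placed 2 of the 3 Fli1 peaks and the only Ikzf1 peak within Ikzf3 under Grb7.

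Contacts of the promoters in the Abelson line were measured between 5 kb bins, as read pairs enriched for H3K4me3, and each listed interaction had a q-value of at most 0.05 in the deposited list. The Ikzf3 promoter bin (chr11:98545001-98550000) had its highest contact count, 50, with the bin 55 kb away that holds the intron 3 region (chr11:98490001-98495000, q = 9.64e-13). Its next was the bin 85 kb away at chr11:98460001-98465000, with 44 contacts (q = 7.22e-17). Then came chr11:98475001-98480000, 70 kb away, with 35 contacts (q = 0.000121). That bin holds no accessible region and no Fli1 or Ikzf1 peak. The promoter bin also contacted the bin of the Stard3 promoter with 23 contacts (q = 4.8e-06). With 22 contacts (q = 4.74e-07) it reached a bin named for Ppp1r1b that holds an Ebf1-bound region. Accessibility of the latter region was 40.8 tags in Wt and 9.79 in E2A-KO. Ikzf3 had 11 interactions in all, 8 of them from its promoter, over 40 to 330 kb.

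The Bcl11a promoter had more contacts, farther away and mostly with bins that hold no accessible region. It had 28 promoter interactions, where the median over 6130 genes with an accessible promoter was 6 and 22 genes had more, while the 8 of Ikzf3 were exceeded by 1906 genes. The Bcl11a count joins adjacent promoter bins, chr11:24075001-24080000 and chr11:24080001-24085000. That of Ikzf3 comes from the bin chr11:98545001-98550000 alone. Counts per gene were not adjusted for the number of promoter bins. Over all 33 Bcl11a interactions the distance ran from 10 to 1780 kb with a median of 310 kb, against a median of 130 kb for all 69898 interactions. The highest count, 45, was with the bin at chr11:24195001-24200000, 115 kb away (q = 1.44e-11). No accessible region of the Abelson line overlaps that bin. However, 1 begins just past its edge (chr11:24200093-24201130) and carries a Fli1 and an Ikzf1 peak. The next highest count, 30 (q = 7.76e-14), was with the bin 170 kb away that holds the distal region chr11:24251541-24251853. A further 25 contacts (q = 0.00529) reached the bin of chr11:24178853-24179496. Both distal regions described above were thus in bins contacted by the promoter.

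The partner bins of the promoter interactions were then described by what they hold, beside the same over the 41491 partners of all promoters. A region just past the edge of a bin was not counted for it. Of the 8 bins contacted by the Ikzf3 promoter, 5 held an accessible region (61.9% of all partners), 1 another gene's promoter (21.95%), 2 an Ebf1-bound region (2.93%), 4 a Fli1 peak (39.9%) and 2 an Ikzf1 peak (12.2%). Of the 28 bins contacted by the Bcl11a promoter, 3 held an accessible region, 2 a Fli1 peak and 1 an Ikzf1 peak, and none held another gene's promoter or an Ebf1-bound region. A difference in partners between the genes was not tested, as bins of 1 promoter are not replicates.

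**Figure D5:**
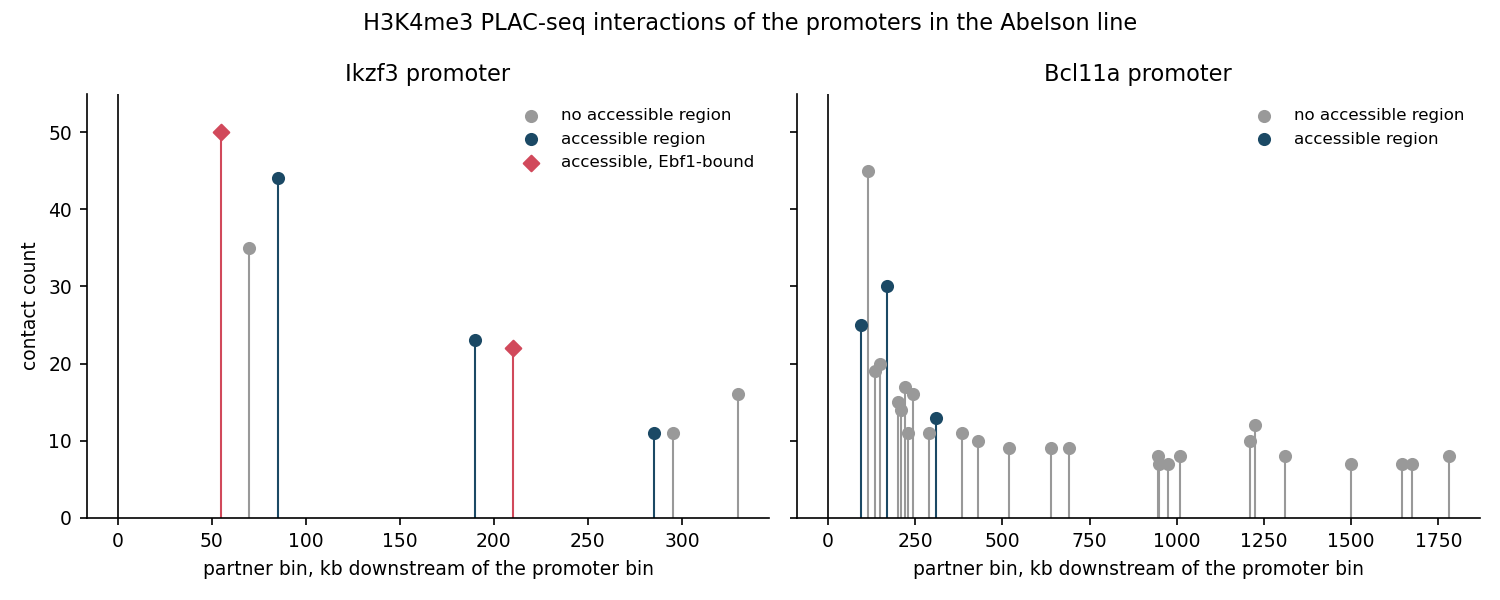
PLAC-seq contact count of each interaction of the Ikzf3 promoter (left) and the Bcl11a promoter (right) against the distance of the partner bin in kilobases, marked by whether the partner holds an accessible or an Ebf1-bound region. The highest Ikzf3 contact, 50, reaches the intron 3 region, and Bcl11a contacts extend to 1780 kb with few accessible partners.

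The genes most like each member were sought over 5 log2 ratios, accessibility and the 4 histone marks, each relative to its all-region median, with each of 1626 genes given by its strongest region. The distance is the straight-line distance in log2 units over these 5 ratios. Among the nearest to Ikzf3 were Cd55 at 1.20 and Clgn at 1.45, where the median gene lay at 6.28. Nearest to Bcl11a were Nr6a1 at 1.36, Spsb1 at 1.54 and Sh3bp5 at 1.63, with a median of 3.57. Ikzf3 and Bcl11a lay 6.05 apart, which placed Bcl11a 718th in order from Ikzf3 and Ikzf3 1463rd from Bcl11a.

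Genes that work with these factors were taken from lists, each gene by its strongest region. None of the other 4 Ikaros family genes had a region in the tables. Of 15 listed genes of NuRD and partner complexes only Mbd2 did, with accessibility of 66.1 tags in E2A-KO and 100.4 in Wt. Of 13 listed targets of Ikaros and Aiolos in pre-B cells, 9 were measured, and several of them are also B progenitor markers. Accessibility was at least 2-fold lower in E2A-KO at 7 of 9 (5 of 9 with TMM), where 40.4% of all genes were. H3K4me3 was at least 2-fold higher in Wt than in Ebf1-KO at 6 of 9, against 19.3% of all genes, and PolII at 8 of 9, against 37.2%. H3K27me3 was at least 2-fold lower in Wt at 2 of 9, Foxo1 and Blnk, against 22.4% of all genes. Igll1, the surrogate light chain gene, had 141 PolII tags in Wt and 3.76 in Ebf1-KO. Foxo1, a transcription factor that drives Rag expression, had 36.7 tags of H3K27me3 in Ebf1-KO and 1.58 in Wt. High H3K27me3 in Ebf1-KO was thus shared with Ikzf3. At 1 Foxo1 region H3K4me2 and H3K27me3 were both at least 2-fold higher in Ebf1-KO, the combination found at the Bcl11a promoter cluster.

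Of 24 other zinc finger factors of lymphoid cells, 7 were measured, and counts among so few genes were not tested. Accessibility was at least 2-fold lower in E2A-KO at 3 of 7 (0 of 7 with TMM), against 40.4% of all genes, among them Prdm1, the regulator of plasma cell differentiation, with 23.1 tags in E2A-KO and 52.7 in Wt. H3K4me3 was at least 2-fold higher in Wt at 1 of 7, against 19.3%, and lower at 1 of 7, against 17.0%. PolII was at least 2-fold higher in Wt at 4 of 7 (1 of 7 with TMM), against 37.2%, most at Zfpm1, which encodes the GATA cofactor Fog1, with 80.4 tags in Wt and 4.45 in Ebf1-KO. H3K27me3 was at least 2-fold lower in Wt at 3 of 7, against 22.4%, of which Hivep3 had the highest Ebf1-KO value, 19.7 tags against 3.44 in Wt. None of the 7 reached the 45.2 tags of H3K27me3 seen at the Ikzf3 promoter in Ebf1-KO.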

How the data were processed

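The region tables hold signal values that the authors made with HOMER, scaled to 10000000 tags per library per the file headers. Undoing that scaling with the totals in the headers gave whole numbers of tags in all regions, except that H3K27me3 and H3K27ac came in steps of 0.5. Tools named in the submitters' processing notes include HOMER 4.10, Bowtie2 2.3.5 and HiC-Pro 2.11.1, with the build mm10. For PLAC-seq the authors deposited a contact count and a q-value per pair of bins, and the Fli1 and Ikzf1 lists hold a peak score, per the file headers.

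Groups were single columns, so the planned limma test could not be made. PolII at the members came from the histone tables, because the Ebf1-bound tables, where it had been planned, do not name them. The Wt ATAC column is headed as a pool of 6 libraries, while 3 samples are labelled. ATAC values of Ebf1-KO and Pax5-KO cells (2 columns) were left out, having no labelled sample. No region is known to lie in a deleted part, so the knockouts were not checked. Input and IgG libraries were not analysed here. Nothing in the labels says that pooled libraries came from separate animals.

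Log2 ratios used a pseudocount of 1 tag and called 2-fold differences. Intervals are at 95%, and a count of 0 was set to a floor of 3 tags per library. Overlaps needed 1 base. A region was given in full where it was a promoter, held a gene's highest or lowest ratio, or was Ebf1-bound, and the 3 genes nearest to each member were named, of which 1 is not reported here. The members and lists were chosen with earlier results of these data known. Alternatives were TMM (edgeR 4.0.16, R 4.3.3), pseudocounts of 0.5 and 3, other folds, a minimum of 10 tags, q of 0.01 and regions within 100 kb. Subtracting the median of all regions, and TMM for the gene lists, were chosen after seeing the data. Python 3.11.15 with numpy 2.4.6, pandas 2.3.3, SciPy 1.17.1 and matplotlib 3.10.9 was used, and the interval code was tested on simulated data.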

Additional observations from a re-analysis of the deposited data

How the results depend on the processing

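No paired analysis was possible because each group is 1 column, and leaving out a replicate was not run for the same reason. No region with a 2-fold difference changed its sign under the alternatives run. Among smaller ratios at Bcl11a, TMM changed the sign of 4 for accessibility, 3 for H3K27ac and 2 for PolII, and subtracting the median that of 3, 3 and 2. The count of 6 regions with lower accessibility in E2A-KO became 0 with TMM, 0 after subtracting the median of all regions, 1 with a pseudocount of 3, 0 at a 4-fold call and 2 among the regions with at least 10 tags. With that minimum the H3K4me3 count of 2 became 1, the H3K27me3 count of 5 became 1, and the PolII counts of 2 higher and 2 lower became 1 and 0. The minimum applies to scaled values. The Bcl11a calls it removed for H3K27me3 had 29.5 to 41 recovered tags in Ebf1-KO. At a 4-fold call the H3K4me2 counts of 4 lower and 2 higher became 0 and 1, H3K27ac went from 3 to 1 (2 with TMM and after subtracting the median), and PolII from 2 higher and 2 lower to 1 and 0. The PolII count of 2 higher became 1 with TMM, with a pseudocount of 3 and after subtracting the median, and that of 2 lower became 1 with a pseudocount of 3. At the intron 3 region the log2 ratio of BRG1, 3.89, became 3.32 with a pseudocount of 3. That of EP300, 4.09, became 3.55 with TMM, 3.66 with a pseudocount of 3 and 3.53 after subtracting the median. Of 14 Fli1 peaks, 8 reached the median score, and of 44 interactions, 23 had a q below 0.01. Of 72 other values at the named regions, 54 moved by less than their interval and 18 by more. Values that rest on few tags, such as H3K27me3 of Wt at Bcl11a and the 4OHT values, are limited by depth.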
